A study of Arabidopsis thaliana with 2 samples.

Results

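The transposon and pseudogene loci in a list of genes bound by LHY are described here. LHY is a MYB-type transcription factor of the Arabidopsis circadian clock. The members were the lines of the authors' gene list whose name or functional description contained "transpos", "retroelement", "pseudogene", "tRNA gene", "pre-tRNA", "microRNA" or "snoRNA", in any case of letters. These words found 62 of 1602 listed loci. Of the members, 45 carried "transpos" and 17 "pseudogene"; "retroelement" occurred in 1 of those 17, and the words for noncoding RNA matched 0 loci. The working description of the set also names noncoding RNA loci, which the authors' list holds under other names or with no name. These are described separately below, by the gene biotype of a reference table.

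Chromatin was prepared from wild-type Arabidopsis thaliana seedlings of the Col-0 ecotype, 2 weeks old, at 2 h after dawn. An antiserum raised to full-length LHY was used for immunoprecipitation, and 4 ChIP samples were pooled into 1 library; the corresponding input DNA gave the 1 control library. No plants lacking LHY and no replicate libraries were analysed here, so no value below carries a replicate error and no test between sets of loci was made. Read depth is unknown. The authors give each peak 2 values, a −log10 q from their peak caller, called the strength here, and a distance in bp from the start of the paired locus, negative when upstream. They paired a peak with the nearest gene pointing away from it, so upstream positions are favoured by construction. No source used here states how reads matching several copies of a repeated element were handled, and the part of this in the values below was not tested.

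Transposable elements are DNA segments that move or copy themselves within the genome. Copia and gypsy elements are retrotransposons with long terminal repeats, and LINE elements are retrotransposons without them; both kinds copy through RNA and a reverse transcriptase. Mariner, hAT, Mutator and CACTA elements are DNA transposons, moved by a transposase. In Arabidopsis most of them are kept silent by DNA methylation and small RNAs, and they are densest around the centromeres. Pseudogenes are decayed copies of genes.

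The members comprised 31 retrotransposon loci (11 copia, 11 gypsy and 9 LINE), 12 DNA transposon loci (5 CACTA, 4 hAT, 2 Mutator and 1 Mariner), 17 loci described as pseudogenes and 2 loci found by a word inside a longer description. By reference biotype, 56 members were pseudogenes, a class that there includes transposon genes, 5 were transcribed pseudogenes and 1 was protein-coding. They lay on all 5 chromosomes, with 14, 13, 12, 13 and 10 members on chromosomes 1 to 5. Annotated pseudogenes appeared in the list less often than protein-coding genes. Of 3917 annotated nuclear pseudogenes 69 were listed (1.76%), and of 926 transcribed pseudogenes 16 (1.73%), beside 1477 of 27444 protein-coding genes (5.38%).

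Peaks at the transposon and pseudogene loci had a lower median strength than those of the other loci and a median position farther upstream, and both spreads overlapped widely. The median strength of their strongest peak was 6.95, with quartiles of 5.36 and 10.8 and a range of 2.61 to 83.8. The other 1540 loci had a median of 10.3 and quartiles of 6.80 and 18.4. Above the median of all single peaks, 10.2, lay 20 members (32.3%), against 51.9% of all listed loci. The strongest member ranked 43rd in the list and the next 238th. Between the classes the medians were 8.52 for DNA transposons, 7.43 for retrotransposons and 6.80 for pseudogenes, and the ranges overlapped.

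**Figure D1:**
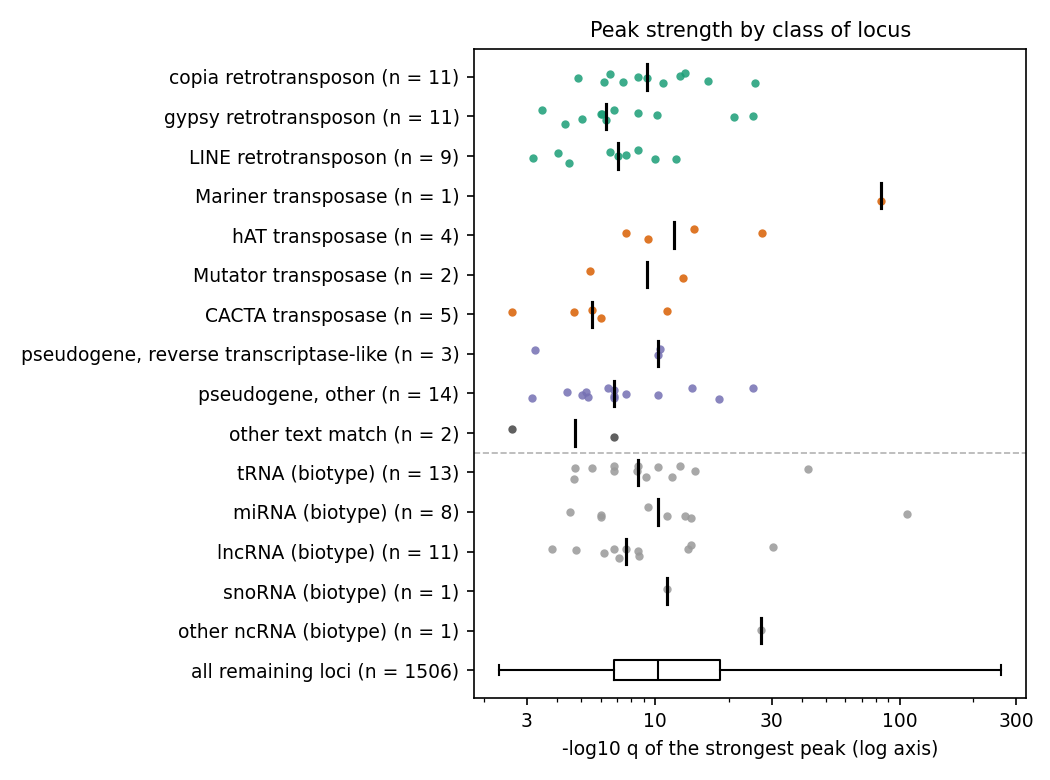
Strength of the strongest peak (−log10 q, log axis) for each member by family, and below the dashed line for noncoding RNA loci by biotype and the remaining loci. Points are loci and short black lines medians; the box of the remaining loci spans the quartiles, with whiskers to the lowest and highest value. Apart from the Mariner locus at 83.8, no member exceeds 27.5.

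The median position of the 65 member peaks was −1287 bp, against −447 bp for the other loci. A promoter window was set at 1000 bp upstream and 200 bp downstream of the start. In it lay 30 member peaks (46.2%), against 65.5% of all listed peaks. Within the 200 bp upstream of the start were 5 (7.69%), against 25.8% of the peaks of the other loci. More than 3000 bp upstream were 12 (18.5%), against 9.53% of all listed peaks. At or downstream of the start there were 0, against 11.2% of all listed peaks. All 198 such peaks in the list stood at protein-coding loci, so the listed noncoding RNA loci also had 0. Of the 21 member peaks above the median of all peaks, 6 lay in the window (28.6%), with a median position of −1894 bp. Of the 44 at or below that median, 24 did (54.5%), with a median of −859.5 bp. For the other loci the shares in the window were 70.0% and 62.4%. The position depends on where the annotation places the start of a transposon or pseudogene, which need not be a site where transcription begins.

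**Figure D2:**
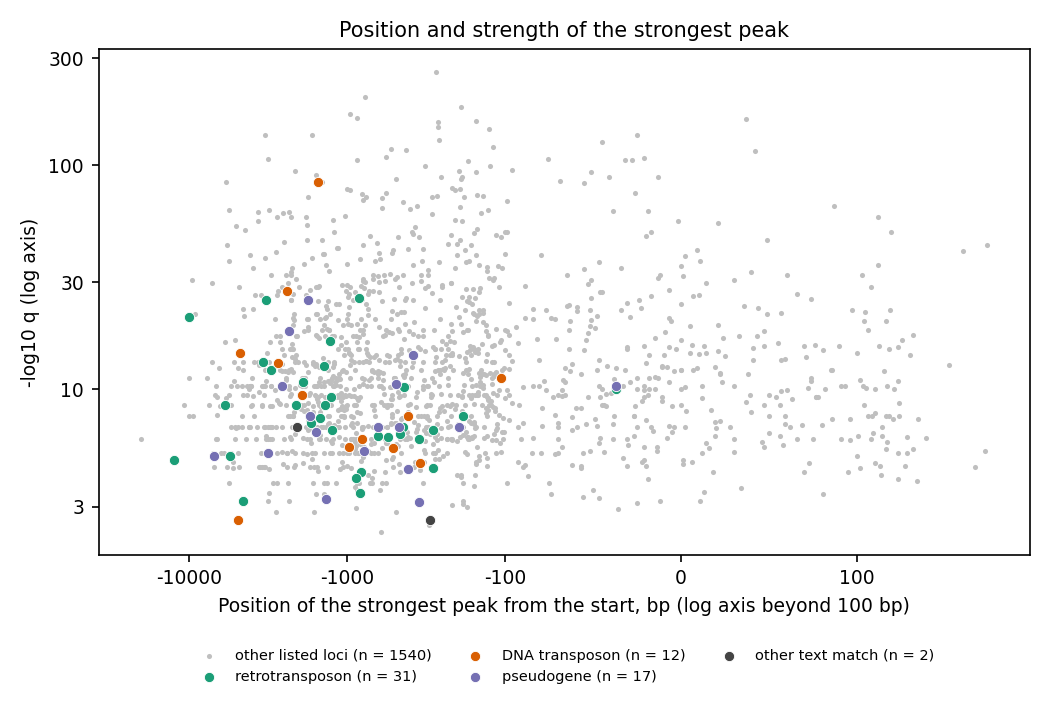
Position of the strongest peak from the start of the paired locus (bp, log axis beyond 100 bp) against its strength (−log10 q, log axis), with members coloured by class and other loci in grey. Members lie between −12387 and −37 bp, and all but the Mariner locus have a strength of at most 27.5.

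A phase of expression in constant light, which the authors took from a database, was listed for 2 members (3.23%), against 38.1% of all listed loci. These were the Mutator locus AT4G08970, with a phase of 3 h after subjective dawn, and the pseudogene AT4G13900, similar to a leucine-rich repeat protein of tomato, with 19 h. The coverage of transposons and pseudogenes by that database was not analysed here.

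Among the DNA transposons, the Mariner-like locus AT2G19806 on chromosome 2 had the strongest member peak, 83.8 at −1537 bp. The same value was listed at 2 loci on chromosome 5, MYB59 at −5843 bp and its neighbour AT5G59790 at −1442 bp, so equal values do not always mark 1 peak. The neighbours of AT2G19806 in the annotation were a pseudogene, AT2G19803, and OZF1, a CCCH zinc finger gene; neither was listed. MIOX2, a myo-inositol oxygenase gene 3 places away, was listed with a weak peak of 3.28 at −47 bp. The neighbours given here and below were looked up after the values had been seen.

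The 4 hAT-like loci were all described as matches to Tag2, an Arabidopsis hAT element. AT3G23085 had 27.5 at −2408 bp, AT4G07874 had 14.5 at −4758 bp, AT2G03650 had 9.39 at −1926 bp and AT5G39070 had 7.64 at −413 bp. Only the last lay in the window (25%, against 65.5% of all listed peaks). The Mutator-like loci were AT1G35060, with 13.1 at −2736 bp, and AT4G08970, with 5.45 at −511 bp. AT4G08970 stands next to FBW2, which encodes an F-box protein that targets the small RNA effector AGO1 and which had no listed peak.

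The CACTA-like loci had the lowest median of the families with more than 2 members, 5.54. Of their 5 peaks, 4 lay in the window (80%), against 65.5% of all listed peaks. The strongest was AT3G30335, with 11.3 at −106 bp. AT4G08871 had 6.001 at −812 bp, AT1G37036 had 5.54 at −970 bp and AT3G43128 had 4.69 at −345 bp. The weakest, AT5G28926, had 2.61 at −4895 bp.

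Copia loci had the highest median of the retrotransposons, 9.25. Of their 11 peaks, 2 lay in the window (18.2%), against 65.5% of all listed peaks. AT5G42645 led with 25.5 at −848 bp; it stands beside AOS, the allene oxide synthase gene of jasmonate synthesis, which was not listed. AT2G21310 had 16.5 at −1287 bp, AT2G15870 had 13.3 at −3412 bp and AT3G45775 had 12.7 at −1398 bp. AT4G20180 had 10.8 at −1894 bp and AT1G47520 had 9.25 at −1274 bp. The weakest copia peak, 4.84 at AT2G09830, was also the member peak farthest from its start, at −12387 bp. The median number of pseudogenes among the 20 flanking genes of copia loci was 5. For AT5G33175 (8.50 at −5914 bp) it was 18 and for AT2G09830 it was 15, and the other 9 copia loci had fewer than 10. Immediate neighbours included the auxin response factor gene ARF6, beside AT1G30340 (6.59 at −1239 bp). OPR3, another jasmonate synthesis gene, stood beside AT2G06045 (7.43 at −1478 bp), and TT2, a MYB gene of seed coat tannin synthesis, beside AT5G35555 (6.20 at −639 bp). ARF6, OPR3 and TT2 had no listed peak. AT1G30350, a pectin lyase-like gene on the other side of AT1G30340, was listed with 9.39 at −1961 bp. MEE14, 2 places from AT2G15870, was listed with 85.4 at −69 bp.

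Gypsy loci had a median strength of 6.31. Of their 12 peaks, 7 lay in the window (58.3%), against 65.5% of all listed peaks. Of the 11 loci, 7 were described as matches to Athila, a family abundant around Arabidopsis centromeres. All 11 had at least 10 pseudogenes among their 20 flanking genes, with a median of 17. Of all members 56.5% had at least 10, and of all annotated pseudogenes 61.8%. AT3G29577 had 2 peaks, 25.1 at −3238 bp and 13.9 at −2627 bp. The Athila locus AT3G33058 had 21.1 at −9934 bp, and all 20 of its flanking genes were pseudogenes. AT3G31630 had 10.2 at −439 bp, AT3G32975 had 8.50 at −1386 bp and AT1G38185 had 6.80 at −447 bp. AT1G37100 had 6.31 at −462 bp, and the weakest, AT5G34839, had 3.45 at −836 bp.

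LINE loci had a median of 7.10. Of their 10 peaks, 5 lay in the window (50%), against 65.5% of all listed peaks. AT1G37120 had 12.2 at −3038 bp and stands beside NIA2, a nitrate reductase gene that was not listed. AT2G15540 had 10.03 at −37 bp and AT2G15250 had 7.64 at −184 bp, the LINE peaks closest to a start. AT2G05200 had 8.50 at −2122 bp and AT4G03813 had 6.59 at −288 bp. AT4G04296 had 2 peaks, 7.10 at −1683 bp and 6.07 at −1402 bp. The weakest was AT5G36226, with 3.17 at −4573 bp.

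Of the 17 pseudogenes, 3 were described as similar to reverse transcriptases. AT3G42713 had 10.5 at −493 bp, AT1G60150 had 2 peaks of 10.3 at −2571 bp and 9.39 at −1548 bp, and AT1G44040 had 3.23 at −1357 bp. The strongest pseudogene, AT1G56640, had 25.1 at −1775 bp. It is described as similar to a truncated An2, a MYB regulator of flower colour in petunia. It stands beside PAP1, a MYB activator of anthocyanin genes, which was not listed. Its other neighbour, AT1G56630, was listed with 6.001 at −467 bp.

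AT1G42420 had 18.2 at −2327 bp and AT4G13900 had 14.2 at −384 bp. AT3G33575 had 10.3 at −37 bp. AT1G33190, a fragment of an auxin response factor gene, had 7.60 at −1722 bp. AT3G42727, AT4G05588 and AT4G08033 shared one strength, 6.80, at −635, −472 and −195 bp, and the weakest, AT5G34835, had 3.15 at −351 bp. The 10 pseudogenes described as hypothetical proteins all had at least 10 pseudogenes among their 20 flanking genes. Of all members 56.5% did, and of all annotated pseudogenes 61.8%. The 2 loci found inside a longer description were AT2G05950, similar to a transposon-like reading frame, with 6.80 at −2065 bp, and AT1G36095. AT1G36095 encodes a protein related to hAT transposases and had the weakest member peak, 2.608 at −299 bp.

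At 3 members (4.84%, against 3.37% of all listed loci) the same peak was also listed for a protein-coding gene on the other side. In this count, peaks of equal strength at loci at most 5 places apart in the annotation were taken as 1. Both peaks of the gypsy locus AT3G29577 were also listed for AFP3, which encodes a binding partner of the abscisic acid regulator ABI5. The 25.1 peak lay at −3238 bp from the gypsy locus and −2257 bp from AFP3. The 13.9 peak lay at −2627 and −2868 bp. Both pairs of distances add up to 5495 bp, so the positions place both peaks between the same pair of starts.

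The 12.7 peak of the copia locus AT3G45775, at −1398 bp, was listed for the blue-light receptor gene PHOT1 at −1598 bp. PHOT1 had a second peak of 8.50 at 674 bp downstream of its start and a listed phase of 6 h. The 16.5 peak of the copia locus AT2G21310, at −1287 bp, was listed for AT2G21300, a microtubule motor gene, at −1390 bp. AT2G21300 had a stronger peak, 41.7, at 9 bp downstream of its start. BBX18, a B-box gene on the other side of AT2G21310, had no listed peak. For these 3 members the list does not tell which locus of a pair the peak belongs to.

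Counting protein-coding genes and pseudogenes, an immediate neighbour was listed for 8 members (12.9%), against 13.8% of the listed loci of these biotypes. A listed locus stood within 3 places for 14 members (22.6%), against 30.2%. Members stood within 3 places of one another at 4 loci. AT4G06646 (5.02 at −6908 bp) and the Athila locus AT4G06648 (6.001 at −354 bp) are adjacent, and AT1G37100 and AT1G37120 are 3 places apart. A listed pseudogene outside the keyword set, AT1G37080 (6.001 at −940 bp), lay 3 places from AT1G37100. More than 1 peak was listed for 3 members (4.84%, against 9.11% of all listed loci), AT3G29577, AT1G60150 and AT4G04296.

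Members stood in pseudogene-rich stretches of the annotation more often than other listed loci. The median number of pseudogenes among the 20 flanking genes was 12, against 0 for the other loci and 13 for all 4834 annotated pseudogenes with 10 genes on each side. At least 10 of 20 were pseudogenes for 35 members (56.5%), against 5.08% of all listed loci and 61.8% of annotated pseudogenes. Among protein-coding genes and pseudogenes, both immediate neighbours were protein-coding for 20 members, 1 was for 19, and neither was for 23.

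**Figure D3:**
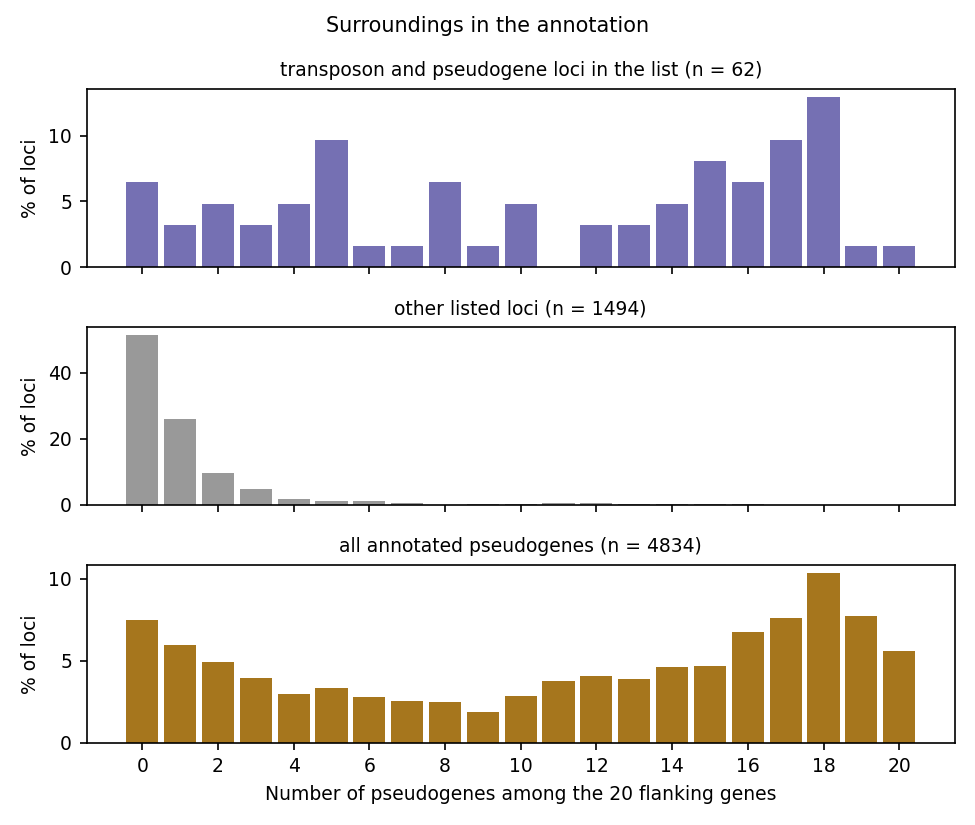
Percentage of loci (vertical axes, each with its own scale) by the number of pseudogenes among their 20 flanking genes. The 62 members spread from 0 to 20 with a median of 12, the other listed loci pile up at 0, and all annotated pseudogenes have a median of 13.

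The values by surroundings were as follows. The 35 members with at least 10 pseudogenes among 20 had a median of 6.44, and the 27 others 9.25; their ranges overlapped. Members between 2 protein-coding genes had a median of 9.85 and a median position of −1478 bp. Members with 1 protein-coding neighbour had 6.80 and −1461.5 bp, and members with none had 6.80 and −482.5 bp. Protein-coding genes in such stretches (34 listed, AT1G36095 among them) had a median strength of 8.07 and a median position of −571.5 bp. In the window lay 58.3% of their peaks, against 54.1% for the 35 members, and 10 of the 34 (29.4%) had a phase, against 0 of the 35 members.

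The share of annotated loci that were listed was lower for pseudogenes than for protein-coding genes in each of 5 ranges of surroundings. With 0 or 1 pseudogene among the 20 flanking genes, 14 of 650 pseudogenes were listed (2.15%), against 1146 of 19686 protein-coding genes (5.82%). With 5 to 9 the shares were closest, 16 of 627 (2.55%) against 49 of 1518 (3.23%). With 15 to 20 they were 30 of 2058 (1.46%) against 11 of 362 (3.04%). No test of these shares was made.

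**Figure D4:**
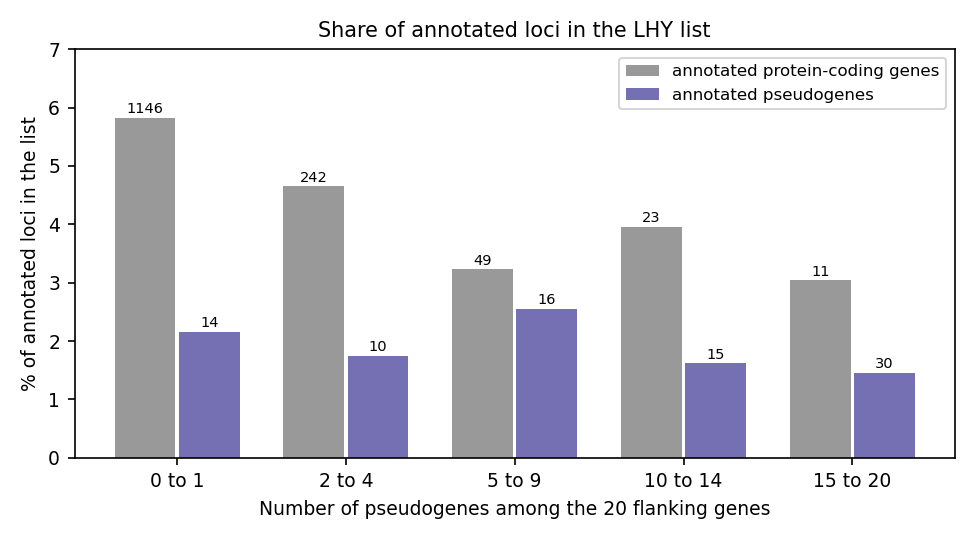
Percentage of annotated protein-coding genes and pseudogenes that appear in the list, by the number of pseudogenes among their 20 flanking genes, with the number of listed loci over each bar. Pseudogenes stay between 1.46% and 2.55%, and protein-coding genes run from 5.82% at the left to 3.04% at the right.

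Equal strengths recurred across the list. The strength of the strongest peak was also listed at another locus for 43 members (69.4%), against 57.3% of all listed loci. The commonest value, 6.80, stood at 70 loci, 5 of them members. Values shared by 5 or more loci were those of 25 members (40.3%), against 32.1% of the other loci.

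By reference biotype the list held 34 noncoding RNA loci, none of them a keyword member: 13 tRNA, 11 lncRNA and 8 miRNA loci, 1 snoRNA and 1 other ncRNA. Their peaks lay nearer to the start than those of the transposon and pseudogene loci. The median position was −304 bp and 79.4% lay in the window, against −469.5 bp and 65.5% for all listed peaks. Their median strength was 8.56, against 10.3 for all listed loci. A phase was listed for 0 of the 34, against 38.1% of all listed loci. Whether the authors' source of phases held any noncoding RNA loci is not known, so their rhythm cannot be read from this count. The annotation lists 625 nuclear tRNA genes, of which 2.08% were in the authors' list, and 326 miRNA genes, of which 2.45% were. The shares were 0.316% of 3480 lncRNA genes, 0.348% of 287 snoRNA genes and 0.452% of 221 other ncRNA genes, against 5.38% of protein-coding genes. These totals, like those of pseudogenes above, come from a TAIR10.1 gene table, while the authors used the TAIR9 build. How many of these genes the authors' annotation held is not known, and a gene absent from it could not be listed.

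Genes of tRNAs are transcribed by RNA polymerase III from promoters inside the gene. Of the 13 tRNA loci, 9 had their peak within the 200 bp upstream of the start (69.2%), against 25.1% of all listed peaks. This difference was not tested. The strongest was a tRNA-Asp locus, AT2G39860, with 42.3 at −412 bp. A tRNA-Asp locus on chromosome 5, AT5G14495, had 14.6 at −751 bp, and the tRNA-Trp locus AT4G17765 had 12.7 at −42 bp. The weakest was the tRNA-Met locus AT1G22320, with 4.65 at −469 bp.

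The strongest noncoding locus was MIR172a (AT2G28056), the gene of a microRNA that represses AP2-like repressors of flowering. Its peak had 107 at −3167 bp. The same value was listed for ELF4, a gene of the evening part of the clock elsewhere on chromosome 2, at −76 bp. MIR163 (AT1G66725) had 13.99 at −274 bp, and PXMT1, a methyltransferase gene known as a target of that microRNA, stood 3 places away with 6.80 at −3189 bp. MIR825 had 13.3 at −334 bp. MIR396a, whose microRNA targets growth-regulating factor genes, had 11.2 at −18 bp. MIR167d and MIR167a, of the family that targets ARF6 and ARF8, had 9.39 at −977 bp and 6.001 at −103 bp. MIR164c and MIR164b, of the family that targets the CUC boundary genes, had 6.05 at −46 bp and 4.496 at −5746 bp. The snoRNA locus U3B had 11.3 at −1252 bp, and the strongest lncRNA locus, AT2G16245, had 30.4 at −340 bp.

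Genes that act in small RNA production and transposon silencing were also looked up in the list. Of 40 matched genes of these pathways, 3 were listed (7.50%, against 5.38% of protein-coding genes, a difference that was not tested). They were DCL1, the Dicer that makes microRNAs, with 17.3 at −2115 bp, and AGO10, an Argonaute of the shoot meristem, with 17.3 at −2805 bp. The third was CLSY1, a chromatin remodeller of small RNA-directed DNA methylation, with 13.2 at −728 bp and a phase of 14 h. Host genes derived from transposases, such as FHY3, a light signalling regulator, and DAYSLEEPER, were looked up too. Of 16 matched, 0 were listed, against 5.38% of protein-coding genes, and with so few genes this difference was not tested.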

How the data were processed

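One pooled LHY ChIP-seq library of Arabidopsis seedlings was compared by the authors with 1 input library. The submitters' processing notes name Bowtie, MACS2 2.0.10.09132012 and the TAIR9 build; no source used here states the peak threshold. The deposited values are the −log10 q of each peak (another header line calls it −log10 of a p-value), a position in bp, the number of peaks and a phase, per the file headers, which give 0.8 as the phase cut-off. Counts of reads were not used here, so depth is unknown.

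Loci were matched to a TAIR10.1 gene table from RefSeq for symbols, biotypes and gene order (1596 of 1602 matched, all 62 members among them); its coordinates are not printed. Shared peaks are equal values at most 5 places apart. Flanking genes are the 10 nearest protein-coding genes or pseudogenes on each side. Sequences and motifs were not analysed here.

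Members, gene lists and surroundings were chosen with earlier results of these data known. Genes were named by a rule: all members of families of up to 6, otherwise the 6 strongest and the weakest, and all with a phase, 2 peaks or a shared peak, and the loci sharing it; others were chosen after their values were seen. List genes were matched by symbol; HST, FAR1 and ALP1 were left out. Counting functions were tested on simulated data. Alternatives covered the keywords, peak strength, window, shared peaks and flanks. Python 3.11.15, NumPy 2.4.6, SciPy 1.17.1 and matplotlib 3.10.9 were used.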

Additional observations from a re-analysis of the deposited data

How the results depend on the processing

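With 1 library per group, no replicate could be left out, and without depth or replicates the values describe this list alone. Motifs could not be searched, as sequences were not analysed here. Medians and shares were compared over alternatives by whether they stayed inside the 95% interval of the value reported (binomial for medians, exact for shares), and counts by a factor of 1.5. The width of these intervals follows the number of loci in a set, and loci are not replicates. They serve only as limits for the count that follows and measure no replicate error. Of 28 alternative values, 19 stayed within these limits. The number of loci was 119 with biotypes in place of keywords, since these add noncoding RNA loci and pseudogenes with no keyword. With peaks above the median of all peaks alone, which removes weak peaks by construction, the median strength was 13.8 for members and 17.8 for the other loci, and 28.6% of member peaks lay in the promoter window. With windows of 500 and 3000 bp upstream that share was 29.2% and 81.5%. The weakest peak per locus gave a median of 9.76 for the other loci. Members between 2 protein-coding genes had a median strength of 9.85; the cause was not tested. Counting only values found at 5 or more loci lowered the number of members with a repeated value from 43 to 25. The alternatives on biotype pseudogenes, neighbours, flanks and repeated values were chosen after seeing the data.

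No paired analysis was possible because there was 1 IP library and 1 input library.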

Other observations

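Beyond the keyword set, 24 listed loci were pseudogenes or transcribed pseudogenes in the reference table without carrying any of the keywords. Taking all 85 listed pseudogenes by biotype in place of the keyword members left the summaries close to those above: the median strength was 7.10, 46.6% of peaks lay in the promoter window and 2.35% of loci had a phase. Only 24 of the 85 lay outside the keyword set, so most of this closeness was built in. The 24 were not summarised alone.

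Median member strength ran from 4.87 on chromosome 5 and 6.59 on chromosome 4 to 10.4 on chromosome 3, with 10, 13 and 12 members. Neither these medians nor the member counts were compared with the other loci of each chromosome. Whether the spread is particular to the members is therefore not known. The ranges overlapped, and no test was made.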
